A study of Mus musculus with 12 samples.

Results

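Cytosolic ribosomal proteins were represented by 78 of the 14159 genes listed in the deposited values. They were taken by symbol alone, as every gene named Rpl or Rps with a number and at most 1 further letter (a, l or x), together with Rplp0, Rplp1, Rplp2 and Rpsa. They comprised 29 proteins of the small subunit, 42 of the large subunit, the 3 stalk proteins of the large subunit and 4 paralogs whose symbols end in l, and they lie on 19 chromosomes. Rpl22 and Rps27 fit this rule but are not among the listed genes under these symbols. Some ribosomal protein genes outside the rule are described further below. The values came from whole inguinal white adipose tissue (iWAT) of Atf4WT and Atf4AKO mice kept at room temperature (RT) or exposed to cold for 24 h, with 3 biological replicates per group and 4 groups. Mice of both genotypes carried floxed Atf4 alleles on a C57BL/6 background. The Atf4AKO mice also carried Adipoq-Cre, which deletes Atf4 in adipocytes and leaves it in the other cells of the tissue. The ages and sexes of the 12 mice are not given in the labels.

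Ribosomal proteins are built with ribosomal RNA into the small subunit, which reads the mRNA, and the large subunit, which joins the amino acids. Their mRNAs are among the most abundant of any cell. Most of them begin with a C followed by a run of pyrimidines (a 5′ terminal oligopyrimidine tract, or TOP), through which mTORC1 and the RNA-binding protein Larp1 control their translation. ATF4 is the transcription factor of the integrated stress response, in which phosphorylated eIF2α lowers general translation while ATF4 itself is translated.

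The start of the gene was read from RefSeq promoter sequences (build GRCm38.p6), which cover 250 bases before and 50 bases after the annotated start and held 58 of the 78 genes. A tract, taken as a C followed by at least 7 pyrimidines within 10 bases of the annotated start on the coding strand, was present in 23 of the 58 genes (39.66%). Among all listed genes with such an entry it was present in 10.59% (1190 of 11234), a share that includes the 58. This definition was chosen after the sequences and values had been seen. The 8 sequences below were picked from the genes with a tract. Of these, Rpl13a, Rpl18, Rps18 and Rps15a had strong cold responses in Atf4WT mice, and Rps10 and Rps12 were low in cold-exposed Atf4AKO mice. Rplp2 encodes a stalk protein, and Rpl34 rose in both genotypes. Genes that lead the results also include some without a tract by this definition, namely Rpl27, Rps2 and Rpl10. Each sequence is 30 bases long, is read 5′ to 3′ along the strand of the gene, and has its tract in capitals. In Rpl34 the pyrimidines begin before the capitals, because the search started 10 bases before the annotated start. Another annotated start of Rpl34 has no tract by this definition. They lie at chr7:45128719-45128748 (minus strand, Rpl13a), chr7:45718067-45718096 (plus strand, Rpl18), chr17:33955643-33955672 (minus strand, Rps18), chr7:118116123-118116152 (minus strand, Rps15a), chr17:27635223-27635252 (minus strand, Rps10), chr10:23787177-23787206 (minus strand, Rps12), chr7:141447642-141447671 (plus strand, Rplp2) and chr3:130730323-130730352 (minus strand, Rpl34).
Rpl13a: caagaCCTCCTCCTTTCCCaggcggctgcc
Rpl18: ggccgCTCTTTCCCCgcccactccggcgcg
Rps18: ttccgCTCTCTCTTCCacaggaggcctaca
Rps15a: gccatCTTCCCTCgccggtgagtgagtgtt
Rps10: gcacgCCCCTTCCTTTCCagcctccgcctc
Rps12: gccggCCTTTTCCCCTgccgccgccgactt
Rplp2: agcgtCTTCCTTTCgccgccggacgccgcc
Rpl34: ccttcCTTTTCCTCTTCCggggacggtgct

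The libraries held 25719476 to 29105147 reads on listed genes. The normalized count, which is the number of reads divided by the size factor of the library, is used throughout, and fold changes are on the scale of log2(normalized count + 1). Atf4 was checked first. It stood at 5669, 4670 and 4107 in Atf4WT mice at RT and at 1594, 1470 and 1639 in Atf4AKO mice at RT. After cold exposure it stood at 7644, 7511 and 5756 in Atf4WT mice and at 1578, 788 and 1180 in Atf4AKO mice. The genotypes did not overlap in either condition, and the cold-exposed groups differed by -2.60 on the log2 scale (SE 0.22, adjusted p = 0.000644). The groups at RT differed by -1.61 (SE 0.22), which did not pass an adjusted p under 0.05 with limma (adjusted p = 0.0762). Adipocyte markers were high in all libraries, with a mean log2 level of 15.3 to 16.0 over 14 genes. Acta1, an actin of skeletal muscle, stood at 35541 in replicate 2 of Atf4WT at RT and at 13734 in replicate 0 of Atf4WT after cold, against 11.7 to 1314 in the other 10 libraries, so these libraries were also left out together, a choice made after their values had been seen. In whole tissue, fewer cells of a type and less RNA per cell cannot be told apart.

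The 78 genes spanned a wide range of levels. Their mean normalized count over the 12 libraries had a median of 9074, and 6 of them (Rpl26, Rpl30, Rpl32l, Rpl34, Rpl39l and Rpl3l) had a mean under 1000. A transcript length was available for 73 of them. Per kilobase of transcript, the level was highest for Rplp1 (29177), Rpl23a (25764) and Rpl41 (24690) and lowest for Rpl3l (39.9), Rpl39l (95.2) and Rpl26 (153). Only uniquely mapped reads had been counted, so reads shared with a near-identical copy are missing from the values. GENCODE names 24 pseudogenes after Rps12 and 24 after Rpl31, 9 after Rpl30 and 6 after Rpl26, and the levels of these genes are therefore uncertain, as is their order.

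Cold exposure raised the ribosomal protein mRNAs of Atf4WT iWAT. Together they took 2.43%, 2.35% and 2.51% of the reads on listed genes at RT and 2.99%, 3.01% and 3.22% after cold. The groups did not overlap (2.43% ± 0.08 at RT and 3.07% ± 0.13 after cold, SD, n = 3). In Atf4AKO iWAT the share was 2.71%, 2.47% and 2.75% at RT and 2.57%, 2.44% and 2.33% after cold, so the groups overlapped (2.64% ± 0.15 and 2.45% ± 0.12, SD, n = 3).

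**Figure D1:**
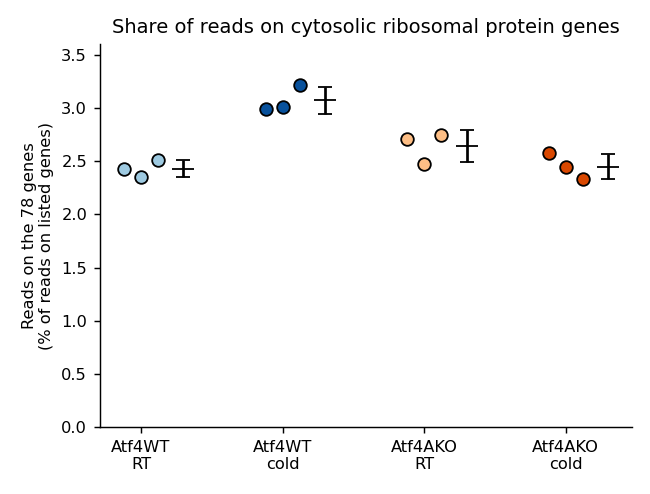
Share of reads on the 78 cytosolic ribosomal protein genes, as a percentage of all reads on listed genes, in each of the 12 libraries. Points are libraries, and the bars give the mean and SD of 3 libraries; the Atf4WT libraries after cold (2.99% to 3.22%) lie above all others (2.33% to 2.75%).

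In Atf4WT mice 77 of the 78 genes had a higher mean after cold than at RT, with a median log2 fold change of 0.37 against 0.00 over the 13404 genes tested. At an adjusted p under 0.05 (limma, Benjamini-Hochberg over all tested genes) 55 of the 78 rose and 0 fell. Among all tested genes 17.0% rose and 14.9% fell. At an unadjusted p under 0.05 the counts were 62 higher and 0 lower, against 22.9% and 20.6% of all tested genes. The rise was small for each gene: 8 of the 78 passed the DEG threshold of a fold change over 1.5 with an unadjusted p under 0.05, against 10.9% of all tested genes. The 3 libraries after cold lay above the 3 at RT for 66 of the 78, against 23.9% of all tested genes.

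The smallest p-values in Atf4WT mice belonged to Rpl27, Rpl8, Rpl18, Rpl13a and Rps2. Rpl27, a large-subunit protein, stood at 4412, 4563 and 4542 at RT and at 7217, 7534 and 6783 after cold (log2 fold change 0.67, SE 0.07, adjusted p = 0.00015). Rpl8, a large-subunit protein beside the peptidyl transferase center, stood at 7387, 9126 and 8903 at RT and at 13538, 13447 and 12535 after cold (0.64, SE 0.09, adjusted p = 0.000542). In both genes each cold-exposed library was above each library at RT. Rpl18 stood at 8363, 7397 and 7242 at RT and at 11390, 11853 and 10594 after cold (0.56, SE 0.08, adjusted p = 0.000542). Rpl13a, also known as a component of the complex that silences inflammatory mRNAs, stood at 16035, 15771 and 16722 at RT and at 24799, 24538 and 27442 after cold (0.66, SE 0.09, adjusted p = 0.000647). Rps2, a small-subunit protein of the mRNA entry region, stood at 18331, 19016 and 17006 at RT and at 27612, 28037 and 26191 after cold (0.59, SE 0.08, adjusted p = 0.000648). None of these groups overlapped.

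The subunits moved to a like degree in Atf4WT mice. Beside the 17.0% of all tested genes that rose, 23 of 29 small-subunit genes rose, with a median log2 fold change of 0.36. Of the large-subunit genes 30 of 42 rose, with a median of 0.41. Both groups held members near 0. Rpl10, which joins the large subunit late in its maturation, stood at 12375, 13069 and 13623 at RT and at 13558, 12893 and 14238 after cold, and these libraries overlapped (0.06, SE 0.10, adjusted p = 0.697). Rpl32l (-0.05) and Rpl39l (0.01) lay farthest below the median with Rpl10, and Rpl27, Rpl13a and Rpl8 lay farthest above it.

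In Atf4AKO mice the same genes split evenly. Of the 78, 39 had a higher and 39 a lower mean after cold, and the median log2 fold change was -0.00 against -0.03 over all tested genes. At an adjusted p under 0.05, Rpl27, Rpl34, Rps2 and Rps27l rose (4 of 78, against 14.8% of all tested genes) and Rpl10, Rpl21 and Rps12 fell (3 of 78, against 11.0%). The libraries after cold lay above those at RT for 14 genes, against 21.7% of all tested genes, and below them for 18, against 19.9%. With libraries scaled to the same 75th percentile, by TMM or to the reads on other genes, 4 genes rose in each case and 14, 10 and 15 fell. These scalings also moved the median of all genes, by -0.060, -0.036 and -0.096. The share of all tested genes that fell under them is not given here.

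Rpl27 in Atf4AKO mice stood at 5442, 5382 and 4787 at RT and at 6151, 6697 and 6219 after cold (0.29, SE 0.07, adjusted p = 0.0155). Rps2 stood at 20932, 21045 and 19527 at RT and at 26608, 26875 and 28066 after cold (0.41, SE 0.08, adjusted p = 0.00534). Rpl34, a large-subunit protein, stood at 347, 316 and 290 at RT and at 434, 459 and 424 after cold (0.47, SE 0.10, adjusted p = 0.00531), and its groups did not overlap in Atf4WT mice either (303, 316 and 301 against 414, 431 and 431). Rpl27, Rpl34 and Rps2 were the 3 genes that rose in both genotypes. The call for Rpl27 in Atf4AKO mice was lost without replicate 1 of the cold-exposed group (adjusted p = 0.0641).

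Rps12, a small-subunit protein, stood at 13404, 11446 and 11870 in Atf4AKO mice at RT and at 10639, 9203 and 8078 after cold (-0.40, SE 0.11, adjusted p = 0.0259). Rpl21, a large-subunit protein, stood at 11609, 11382 and 11340 at RT and at 10283, 9546 and 8526 after cold (-0.28, SE 0.08, adjusted p = 0.0249). Rpl10 stood at 15035, 15871 and 15253 at RT and at 13076, 10512 and 13965 after cold (-0.31, SE 0.10, adjusted p = 0.0497). None of the 3 genes overlapped between the groups. Each of the 3 calls was lost without replicate 1 of the cold-exposed Atf4AKO mice (adjusted p = 0.0695 for Rps12, 0.0612 for Rpl21 and 0.183 for Rpl10) and without replicate 0 of Atf4AKO at RT (0.100, 0.0771 and 0.0974). Those for Rps12 and Rpl21 were also lost without replicate 2 of the cold-exposed Atf4AKO mice (0.0906 and 0.0857), that for Rpl21 without replicate 1 of Atf4AKO at RT (0.0545), and that for Rpl10 without any library other than replicate 2 of the cold-exposed Atf4AKO mice (0.0544 to 0.183).

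**Figure D2:**
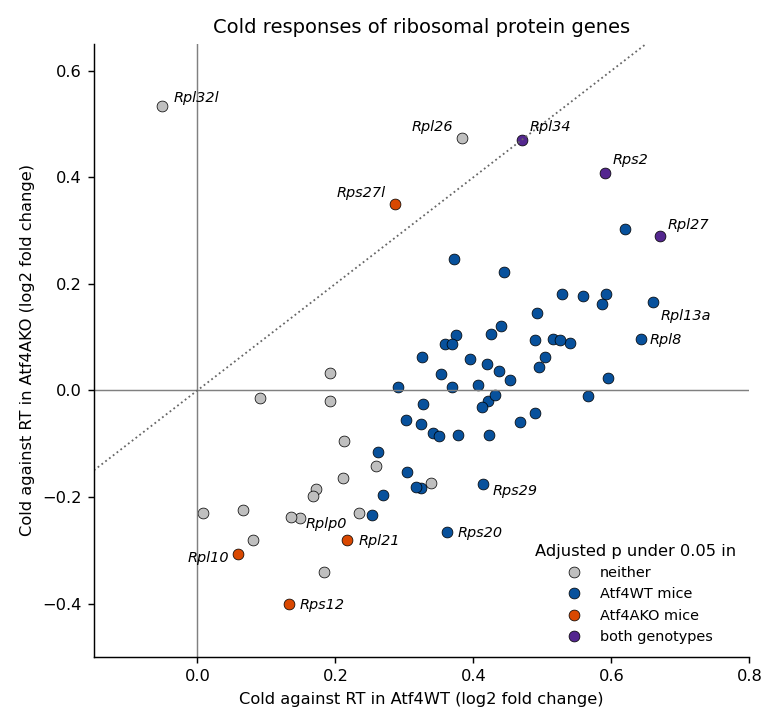
Log2 fold change after cold in Atf4WT mice (horizontal) and in Atf4AKO mice (vertical) for 77 of the 78 ribosomal protein genes, colored by the genotypes in which the adjusted p was under 0.05, with the line of equal response dotted. Most points lie below that line; Rpl3l, at 0.21 and 1.34 with an SE of 1.70, is left out.

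The log2 fold change after cold was larger in Atf4WT than in Atf4AKO mice for 74 of the 78 genes, the exceptions being Rpl26, Rpl32l, Rpl3l and Rps27l. Of the 55 genes that rose in Atf4WT mice, 21 had a value below 0 in Atf4AKO mice. The difference between the responses (Atf4AKO minus Atf4WT) had a median of -0.38 over the 78 genes and of 0.03 over all tested genes. Tested as an interaction, it passed an adjusted p under 0.05 for 0 of the 78 genes with limma and with edgeR and for 27 with DESeq2, all lower, against 0.904% of all genes with an adjusted p. At an unadjusted p under 0.05, limma gave 59 lower and 0 higher, against 5.14% of all tested genes that were lower. With edgeR 61 were lower, and the share of all genes for that count is not given here. Among the smallest p-values were those of Rplp1 (-0.51, SE 0.10, adjusted p = 0.474), Rps10 (-0.50), Rpl13 (-0.46) and Rpl10a (-0.51), and the largest difference below 0 was that of Rps20 (-0.63, SE 0.14), all with the same adjusted p. For 12 of the 78 genes, against 0.291% of all tested genes, the libraries after cold lay above those at RT in Atf4WT mice and below them in Atf4AKO mice, without overlap in either.

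In the cold-exposed groups, Atf4AKO iWAT had less of most ribosomal protein mRNAs than Atf4WT iWAT. The mean was lower for 73 of the 78 genes, with a median log2 difference of -0.25 against 0.05 over all tested genes. No gene passed an adjusted p under 0.05 with limma (0 of 78, against 0.0298% of all tested genes that were lower) or edgeR, while 27 were lower with DESeq2, against 3.99% of all genes with an adjusted p. At an unadjusted p under 0.05, limma gave 48 lower and 0 higher, against 7.98% of all tested genes that were lower. With edgeR 53 were lower, and the share of all genes for that count is not given here. B and T cell markers were lower in the same comparison, by a median of -5.57 and -3.68. With their mean level as a covariate, 14 of the 78 were lower at an unadjusted p under 0.05, against 2.73% of all tested genes, and the median was -0.26. That level did not overlap between the genotypes after cold (6.97 to 9.44 in Atf4WT and 3.34 to 4.93 in Atf4AKO mice). The fit therefore separates it from genotype only in part. The libraries did not overlap for 52 of the 78, all of them lower, against 7.84% of all tested genes.

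Rps10, a small-subunit protein, had the smallest p-value of this comparison, with 8943, 9171 and 9242 in Atf4WT and 7544, 6992 and 6582 in Atf4AKO mice after cold (-0.38, SE 0.07, adjusted p = 0.0648). Rpl21 followed with 12452, 12171 and 12366 against the 10283, 9546 and 8526 given above (-0.39, SE 0.08, adjusted p = 0.0667). Rps15a stood at 6865, 7095 and 7268 against 6154, 5234 and 5094 (-0.37, SE 0.08, adjusted p = 0.0695). For these 3 genes every Atf4AKO library was below every Atf4WT library. Rps20 was also lower without passing the adjustment (-0.44, SE 0.10, adjusted p = 0.0708). On the other side, Rpl26 (0.25, SE 0.18), Rpl32l (0.13), Rps27l (0.11), Rpl34 (0.05) and Rpl7a (0.03) were the 5 genes with a higher mean in Atf4AKO mice, and their libraries overlapped. The values of Rps27l, Rpl34 and Rpl7a fell below 0 when libraries were scaled to the reads on other genes.

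At RT the order was the other way, by a smaller amount. The mean was higher in Atf4AKO iWAT for 76 of the 78 genes, with a median log2 difference of 0.15 against 0.01 over all tested genes. No gene passed an adjusted p under 0.05 with limma, edgeR or DESeq2. At an unadjusted p under 0.05, edgeR gave 19 higher and 1 lower and DESeq2 27 higher, counts whose share of all genes is not given here. With limma 21 were higher and 0 lower, against 0.761% of all tested genes that were higher, and 37 were higher without overlap, against 3.32%. Rpl8 had the smallest p-value, with the values at RT given above in Atf4WT and 10736, 10388 and 10527 in Atf4AKO mice (0.32, SE 0.09, adjusted p = 1.00). Rps26, Rplp1 and Rpl10a, also among the smallest p-values, stood at 0.22 to 0.23. The libraries at RT enter both this comparison and the cold responses, so the direction here and the difference between those responses share their values.

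The stalk proteins Rplp0, Rplp1 and Rplp2 form the flexible arm of the large subunit that recruits elongation factors. Rplp0, whose mRNA is used under the name 36B4 as a qPCR reference, stood at 17577, 18889 and 17320 in Atf4WT mice at RT and at 20408, 21806 and 21048 after cold (0.23, SE 0.08, adjusted p = 0.0525). In Atf4AKO mice it stood at 20271, 20794 and 19248 at RT and at 18518, 16416 and 16528 after cold (-0.23, SE 0.08, adjusted p = 0.0643). Neither pair of groups overlapped, and neither passed the adjustment. After cold the genotypes differed by -0.30 (SE 0.08, adjusted p = 0.129), again without overlap. Rplp1 rose in Atf4WT mice from 12729, 13315 and 13250 to 16988, 16306 and 15910 (0.32, SE 0.07, adjusted p = 0.00617), a call lost with the lymphocyte markers as a covariate (0.36, adjusted p = 0.0611). In Atf4AKO mice it stood at 16024, 15179 and 14644 at RT and at 13363, 13706 and 13296 after cold (-0.18, SE 0.07, adjusted p = 0.0805). Rplp2 rose in Atf4WT mice (0.44, SE 0.11, adjusted p = 0.0105), a call lost without both libraries with high Acta1 (0.32, adjusted p = 0.0977), and stood at 0.04 (SE 0.11) in Atf4AKO mice, a value whose sign changed with the scaling. Rpsa, which is also a laminin receptor precursor, rose in Atf4WT mice (0.53, SE 0.09, adjusted p = 0.00167) and stood at 0.18 (adjusted p = 0.158) in Atf4AKO mice. Rps27a, made as a fusion with ubiquitin, rose in Atf4WT mice as well (0.37, SE 0.07, adjusted p = 0.0035), a call also lost with that covariate (0.33, adjusted p = 0.0887), and stood at 0.09 (adjusted p = 0.394) in Atf4AKO mice.

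**Figure D3:**
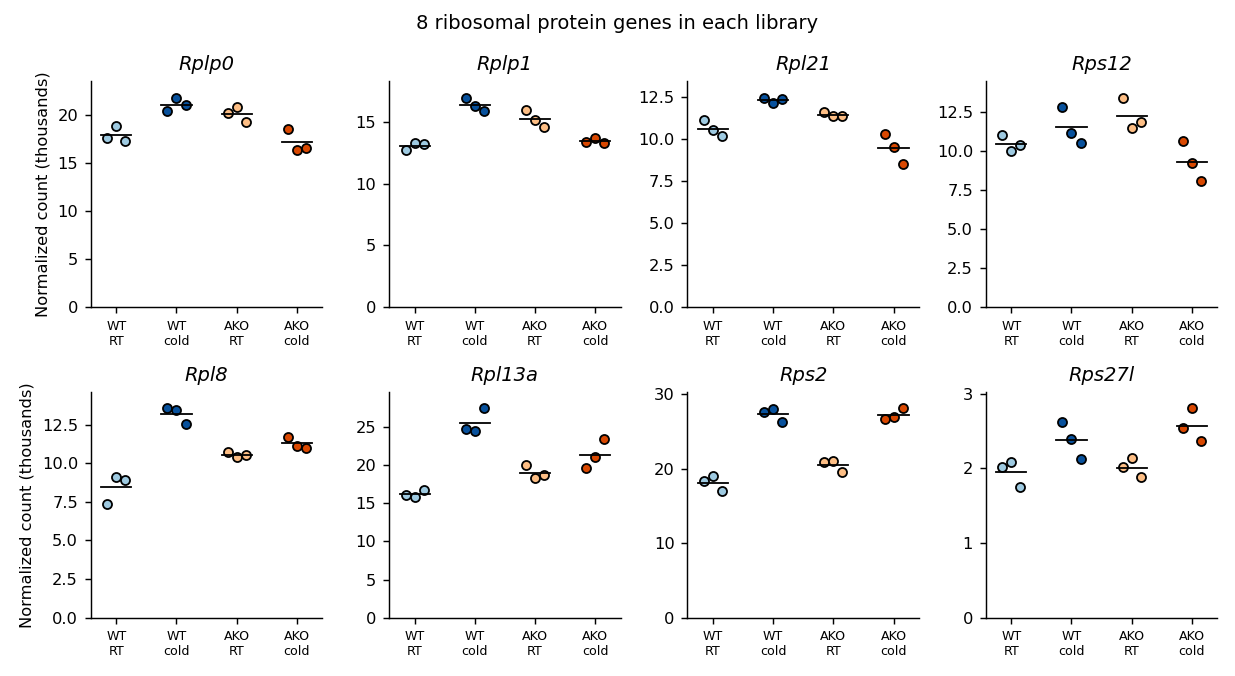
Normalized counts (in units of 1000, linear axes from 0) of 8 ribosomal protein genes in each library, with WT for Atf4WT and AKO for Atf4AKO and a line at the mean of 3 libraries. Rplp0, Rplp1, Rpl21 and Rps12 are lower after cold than at RT in Atf4AKO mice, whereas Rpl8 and Rpl13a are highest in cold-exposed Atf4WT mice and Rps2 and Rps27l are high after cold in both genotypes.

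Other qPCR reference genes were set beside Rplp0. Of 14 such genes, 3 rose in Atf4WT mice, among them Pgk1 and Tfrc, and in Atf4AKO mice Pgk1 and Gapdh rose and Actb fell. The shares that rose (21.4% and 14.3%) are near the 17.0% and 14.8% of all tested genes. Pgk1 showed the largest change, with 1.13 in Atf4WT and 1.22 in Atf4AKO mice. Values closest to 0 were those of Tbp (0.05 in Atf4WT and 0.19 in Atf4AKO mice), Nono (-0.09 and -0.14), Ywhaz (0.10 and -0.09) and Ppia (0.10 and 0.18), none of which passed the adjustment. The values of Rplp0 (0.23 and -0.23) and of Ywhaz had opposite signs in the genotypes, and whether Rplp0 differed from these 4 genes was not tested.

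Over the 4 paralogs the median cold response was 0.11 in Atf4WT and 0.44 in Atf4AKO mice (log2). The values in Atf4AKO mice ran from -0.23 to 1.34. Among them Rpl32l (0.53, adjusted p = 0.244) and Rpl3l (1.34, adjusted p = 0.589) did not pass and were low in reads. Rps27l, a paralog of Rps27 that is induced by p53, stood at 2018, 2081 and 1754 in Atf4WT mice at RT and at 2616, 2396 and 2129 after cold (0.29, SE 0.10, adjusted p = 0.0514). In Atf4AKO mice it stood at 2012, 2137 and 1884 at RT and at 2536, 2801 and 2361 after cold (0.35, SE 0.10, adjusted p = 0.0273). The groups did not overlap in either genotype, and the call in Atf4AKO mice was lost without any 1 of 4 libraries (replicates 0 and 2 at RT, replicates 0 and 1 after cold; adjusted p = 0.0535 to 0.104). Rpl39l, known from the testis, lay between 47.6 and 112 in all libraries, and its groups overlapped in both cold responses. Rpl32l lay between 9.30 and 21.3 and is annotated as a processed pseudogene in GENCODE. Rpl3l, the form of Rpl3 made in skeletal and cardiac muscle, stood at 480 and 113 in the libraries with high Acta1 and at 1.00 to 26.1 in the other 10. Rpl3 itself stood at 15086, 14227 and 13671 in Atf4WT mice at RT and at 15762, 16566 and 17400 after cold (0.21, SE 0.08, adjusted p = 0.0557), and at -0.16 (adjusted p = 0.136) in Atf4AKO mice.

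Ribosomal proteins whose symbols fall outside the rule moved with the 78. Of the 7 listed, among them Rps3a1, Fau, Rpl36al, Rpl22l1, Rpl7l1 and Rack1, 6 rose in Atf4WT mice and 1 in Atf4AKO mice, with median log2 fold changes of 0.48 and 0.07. Of all tested genes 17.0% rose in Atf4WT and 14.8% in Atf4AKO mice, and the 1 of 7 (14.3%) is near the latter. Fau, whose protein is processed into Rps30 of the small subunit, stood at 7073, 6185 and 6073 in Atf4WT mice at RT and at 9501, 9391 and 8970 after cold (0.53, SE 0.09, adjusted p = 0.00175). In Atf4AKO mice it went from 7143 to 7277 on average (0.02, adjusted p = 0.885). Rack1, a scaffold on the small subunit, rose in Atf4WT mice (0.37, adjusted p = 0.00919) and stood at 0.07 (adjusted p = 0.588) in Atf4AKO mice. Rps3a1, the gene of the 7 that did not pass in Atf4WT mice, stood at 0.24 (adjusted p = 0.0923) there and at -0.21 (adjusted p = 0.155) in Atf4AKO mice. Rpl7l1 rose in both genotypes (0.67, adjusted p = 0.000402, and 0.70, adjusted p = 0.000354).

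Genes that build the ribosome rose in both genotypes. Beside the counts of this paragraph, 17.0% of all tested genes rose and 14.9% fell in Atf4WT mice. In Atf4AKO mice 14.8% rose and 11.0% fell. Of 109 ribosome assembly factors, 66 rose and 0 fell in Atf4WT mice and 52 rose and 1 fell in Atf4AKO mice, with medians of 0.36 and 0.29. Nop2, a methyltransferase of ribosomal RNA, rose by 0.97 (adjusted p = 6.45e-05) in Atf4WT and by 0.82 (adjusted p = 0.000164) in Atf4AKO mice. Of 14 genes of ribosomal RNA transcription, 7 rose in Atf4WT and 5 in Atf4AKO mice, with medians of 0.39 and 0.36. Among them was Rrn3, an initiation factor of RNA polymerase I (0.66 and 0.77, adjusted p = 0.000652 and 0.000319). The proteins of the mitochondrial ribosome, which translates the mRNAs encoded by mitochondrial DNA, gave 46 of 76 higher and 1 lower in Atf4WT and 45 higher and 1 lower in Atf4AKO mice, with medians of 0.42 and 0.41. The median difference between the responses of the genotypes was 0.01 for the mitochondrial ribosome, 0.00 for ribosomal RNA transcription and -0.06 for assembly, against the -0.38 of the cytosolic ribosomal proteins.

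**Figure D4:**
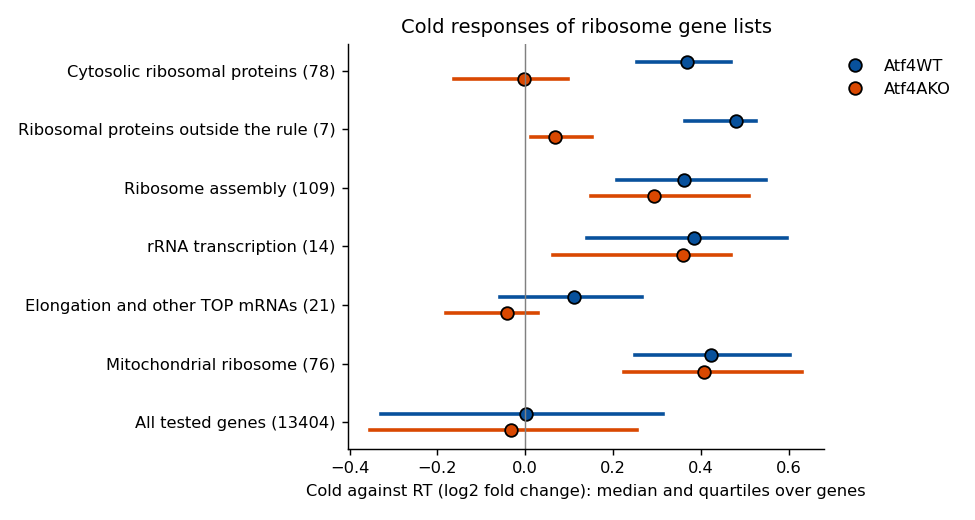
Median (point) and quartiles (line) of the log2 fold change after cold over the genes of each list, with the number of genes in parentheses, in Atf4WT and Atf4AKO mice. The genotypes lie apart for the cytosolic ribosomal proteins (0.37 and -0.00) and those outside the symbol rule (0.48 and 0.07), and close to each other for the mitochondrial ribosome (0.42 and 0.41).

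Of 21 elongation factors and other genes known for TOP mRNAs, 5 rose and 1 fell in Atf4WT mice, and 0 rose and 3 fell in Atf4AKO mice (medians 0.11 and -0.04). Eef1b2, an exchange factor of elongation, rose in Atf4WT mice (0.33, SE 0.07, adjusted p = 0.00535) and was lower in cold-exposed Atf4AKO than Atf4WT mice by -0.33 without passing the adjustment (adjusted p = 0.0667). Of 32 genes of mTORC1 and of TOP mRNA control, 8 rose and 4 fell in Atf4WT and 9 rose and 3 fell in Atf4AKO mice. Larp1 rose in both (0.45 and 0.48), as did Mtor (0.70 and 0.86), while Eif4ebp1, an inhibitor of cap-dependent translation, fell in both (-0.71 and -0.72). Of 11 genes of Myc, Max and their partners, which regulate ribosome genes, 1 rose and 3 fell in each genotype, with medians of 0.09 in Atf4WT and -0.41 in Atf4AKO mice and a median difference of the responses of -0.26. Mlx rose (1.19 and 1.11), and Mycl (-2.33 and -2.59) and Mxd4 were among those that fell. Of 19 genes of ribosome rescue and quality control, 4 rose in Atf4WT and 3 in Atf4AKO mice, among them Abce1, which splits ribosomal subunits (0.58 and 0.47). These shares (21.1% and 15.8%) are near those of all tested genes. Of all tested genes 17.0% rose and 14.9% fell in Atf4WT mice, and 14.8% rose and 11.0% fell in Atf4AKO mice.

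Markers of lymphocytes rose after cold in Atf4WT mice, as most ribosomal protein genes did, and not in Atf4AKO mice. In Atf4AKO mice their median cold responses were -0.59 (B cell) and -0.73 (T cell), beside -0.00 for the 78 genes. Between the genotypes at RT (Atf4AKO against Atf4WT) their medians were -0.69 and 0.36, beside 0.15 for the 78 genes. Of 16 B cell markers, 14 rose after cold in Atf4WT mice and 0 in Atf4AKO mice, and of 19 T cell markers 18 and 0 rose. The shares of all tested genes that rose were 17.0% and 14.8%. The mean log2 level of the B cell markers was 3.68, 3.48 and 8.08 in Atf4WT mice at RT, 8.02, 9.08 and 9.84 after cold, 3.55 to 5.50 in Atf4AKO mice at RT and 2.95 to 4.77 after cold. That of the T cell markers was 4.16 to 5.81, 6.09 to 9.11, 4.46 to 5.87 and 3.67 to 5.08 in the same order. The ribosomal protein genes had a mean log2 level of 12.44, 12.42 and 12.48 in Atf4WT mice at RT, 12.86, 12.77 and 12.78 after cold, 12.53 to 12.60 in Atf4AKO mice at RT and 12.49 to 12.63 after cold. Replicate 2 of Atf4WT at RT had B cell markers (8.08) as high as replicate 0 of the cold-exposed Atf4WT mice (8.02). Its ribosomal protein genes stood at 12.48, beside 12.44 and 12.42 in its own group and 12.86 in that cold-exposed library. These are the libraries with high Acta1, with muscle markers at 12.18 and 10.70 on the same scale, so they also differ from their groups in muscle RNA. The mean level of both lymphocyte lists together was 6.97 to 9.44 in cold-exposed Atf4WT mice. It was 6.85 in replicate 2 of Atf4WT at RT and 3.34 to 5.11 in the other libraries. This level largely follows the groups, so a fit with it as a covariate separates lymphocytes from cold and genotype only in part. In that fit the median of the 78 genes was 0.37 in Atf4WT mice and -0.01 in Atf4AKO mice, and the median difference of the responses was -0.40. The genes that rose in Atf4WT mice then numbered 18 in place of 55, against 10.3% of all tested genes in place of 17.0%, and those with a lower response in Atf4AKO mice at an unadjusted p under 0.05 numbered 37 in place of 59, against 3.69%. Without replicate 2 of Atf4WT at RT the genes that rose in Atf4WT mice numbered 47, and without both libraries with high Acta1 38, with a median of 0.35. Over all tested genes, calls in both directions in Atf4WT mice numbered 4273 in the main fit and 3607 without that replicate. The share of all tested genes without both libraries is not given here. A part of the lymphocytes in the result beyond these values was not tested.

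**Figure D5:**
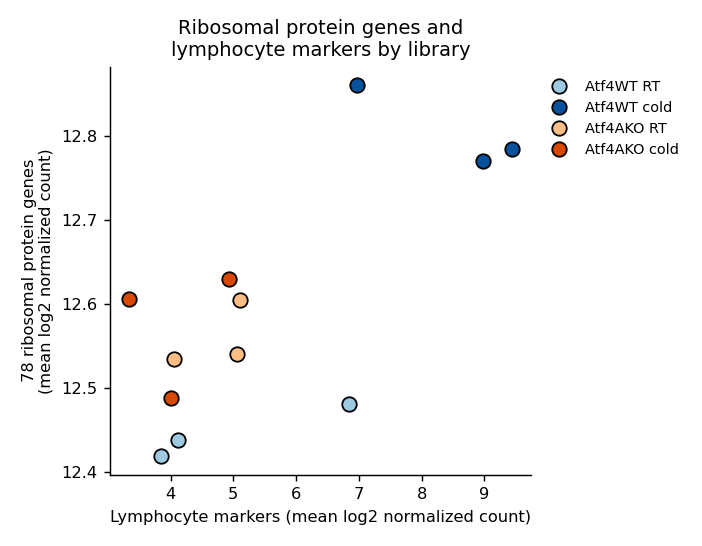
Mean log2 normalized count of the 78 ribosomal protein genes against the same mean over B cell and T cell markers combined, 1 point for each of the 12 libraries, colored by group. The cold-exposed Atf4WT libraries are highest on the vertical axis (12.77 to 12.86), and 1 Atf4WT library at RT, with lymphocyte markers at 6.85 beside 6.97 in the lowest of them, lies at 12.48. The libraries at 6.85 and 6.97 are those with high Acta1.

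Other cell types were followed by the same marker lists. Of 12 macrophage markers 0 rose and 1 fell in Atf4WT mice and none passed in Atf4AKO mice (medians -0.67 and -0.98). Of 10 fibroblast and progenitor markers 2 fell in Atf4WT and 4 in Atf4AKO mice (medians -1.06 and -1.13). Of 8 endothelial markers 3 fell in Atf4WT mice, and 1 rose and 1 fell in Atf4AKO mice. Of 11 proliferation markers 1 fell in each genotype, with medians of 0.02 and -1.22. Of 14 adipocyte markers 3 fell in Atf4WT mice and none passed in Atf4AKO mice, and none of 10 muscle and 3 epithelial markers passed in either. Beside these counts, 17.0% of all tested genes rose and 14.9% fell in Atf4WT mice, and 14.8% rose and 11.0% fell in Atf4AKO mice. The part of these cell types in the result was not tested.

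The genes with and without a tract at the annotated start overlapped widely in their response. In Atf4WT mice the 23 genes with a tract had a median log2 fold change of 0.38 (range -0.05 to 0.66) and the 35 without one a median of 0.34 (range 0.01 to 0.67). In Atf4AKO mice the medians were 0.01 and 0.02. The sequences shown above include Rpl13a, among the strongest responses, and Rps12, among the weakest in Atf4WT mice and the lowest in Atf4AKO mice. Other motifs were searched in the whole window on both strands. CCGGAAGT, a site of ETS family factors, was found for 12 of the 58 genes (20.69%) and 8.136% of all listed genes with an entry. A palindrome known from promoters without a TATA box was found for 6 (10.34%) and 1.006%. TGATGNAAT, the composite site of ATF4 with C/EBP factors, was found for 0 of the 58 and 0.6142% of all, and says only that these letters are absent from these windows. GGGCGG (60.34% and 65.51%), TATAAA (10.34% and 9.409%), AAGATGGC (5.172% and 4.753%), TGACGTCA (8.621% and 3.276%) and CACGTG (10.34% and 11.27%) were also searched, and the motifs may overlap each other.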

How the data were processed

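Polyadenylated RNA of iWAT was sequenced from strand-specific libraries, 12 in all with 3 biological replicates in each of 4 groups, and all 12 were used. Per the paper's methods, the authors cleaned reads by SOAPnuke and aligned them by STAR to the mm10 genome. Unique alignments were then assigned to genes by featureCounts, and the authors deposited this signal after division by DESeq2 size factors from pyDESeq2. Tool versions, and whether counting used the strand, are not given in the sources used here. Each listed gene had at least 1 read in each library. Division by the value of 1 read gave whole reads for 100% of the values, within 0.001 reads.

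The test was limma 3.58.1 (R 4.3.3, trended empirical Bayes variances), applied to log2(normalized count + 1) in 1 fit of 4 group means. It covered 13404 genes whose mean reached 10, all 78 members among them. A gene rose or fell at a Benjamini-Hochberg adjusted p under 0.05 over all tested genes. The study's own DEG threshold stands beside it. DESeq2 1.42.0, which the study used, and edgeR 4.0.16 were run on the recovered reads as alternatives, because the deposited values are normalized. The tests were checked on simulated data. Each p-value measures the spread between 3 libraries a group, pooled over all groups in the fit. A p-value for 1 genotype therefore also rests on the libraries of the other.

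Members, gene lists and tests were chosen with earlier results of these data known. Named genes are Atf4, the stalk genes, Rpsa, Rps27a, the paralogs and the genes they are named after, ribosomal proteins outside the rule, the 5 smallest p-values in each direction per comparison, the 3 highest and 3 lowest levels per kilobase, the 3 responses farthest above and below the median, the reference genes and, from the other lists, those with the smallest p-values or the highest level. Some genes that the rule names are not reported here. Genes named for sequence or for change in both directions were added after their values were seen. Python 3.11.15, numpy 2.4.6, pandas 2.3.3 and matplotlib 3.10.9 were used otherwise. Positions and lengths came from GENCODE and promoters from RefSeq (GRCm38.p6).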

Additional observations from a re-analysis of the deposited data

Results flagged for a closer look

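For 12 of the 78 ribosomal protein genes every Atf4WT library after cold lay above every Atf4WT library at RT while every Atf4AKO library after cold lay below every Atf4AKO library at RT, as for 0.291% of all tested genes. The difference of the responses (Atf4AKO minus Atf4WT, log2) was tested for each as an interaction with limma, and none passed the adjustment (adjusted p = 0.474 to 0.551). It was -0.63 for Rps20, -0.50 for Rps10 and -0.42 for Rps26 in the small subunit. In the large subunit it was -0.50 for Rpl21, -0.49 for Rpl5, -0.46 for Rpl13, -0.39 for Rpl27a, -0.37 for Rpl3 and -0.31 for Rpl4. The stalk genes Rplp1 and Rplp0 stood at -0.51 and -0.47. Groups of 3 libraries were not tested for outlying samples.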

How the results depend on the processing

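Direction and side of the threshold held for most results: of 1567 values of single genes under 26 alternatives, 1453 kept both, 34 lost the call, 53 gained it and 27 changed sign. In Atf4WT mice the count of genes that rose was 55, against 18 with the lymphocyte markers as a covariate, 8 at the DEG threshold and 38 to 58 with 1 library left out. In Atf4AKO mice the 4 that rose became 0 at the DEG threshold and 2 to 4 with 1 library left out (2 without replicate 1 of Atf4AKO after cold). The 3 that fell became 14 with 75th percentile scaling, 10 with TMM, 15 with scaling to other genes, 6 with array weights, 8 with edgeR, 12 with DESeq2, 0 with only those groups fitted, 0 at the DEG threshold and 0 to 7 with 1 library left out (0 without replicate 0 of Atf4AKO at RT or replicate 1 after cold, 1 without replicate 2 after cold and 7 without replicate 0 after cold). The median in Atf4AKO mice was -0.062 with 75th percentile scaling, -0.10 with scaling to other genes and -0.041 to 0.053 with 1 library left out. In that comparison these scalings moved the median of all genes by -0.060 and -0.096, and TMM moved it by -0.036. Between the genotypes after cold, the 0 that were lower became 27 with DESeq2, 2 without both libraries with high Acta1 and 0 to 3 with 1 library left out (3 without replicate 0 of Atf4WT after cold), and the median became -0.36 with scaling to other genes, which moved the median of all genes by -0.11. For the difference of the responses the 0 that were lower became 27 with DESeq2, 2 at the DEG threshold and 1 without both libraries with high Acta1. The median of that difference became -0.46 with scaling to other genes, which moved the median of all genes by -0.078. For most of these counts the share of all tested genes is not given here. The cause of these shifts was not tested.

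With the replicate number as a block, 62 genes rose in Atf4WT mice, 6 rose and 6 fell in Atf4AKO mice, and 2 were lower in Atf4AKO mice after cold. Calls over all tested genes, in both directions, also increased. They went from 4273 to 4858 in Atf4WT mice, from 3467 to 4129 in Atf4AKO mice and from 4 to 189 between the genotypes after cold. Deviations of same-numbered libraries correlated at -0.19 to 0.39, and those of replicate 1 at 0.18 to 0.39 in all pairs of groups. Libraries with different numbers were not correlated, so these values cannot settle whether the numbers pair the libraries. The main fit did not use the numbers.

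Signs changed for genes near 0 or low in reads. After cold, Atf4AKO against Atf4WT gave -0.068 for Rpl34, -0.081 for Rpl7a and -0.0037 for Rps27l with scaling to other genes, -0.012 for Rpl7a with 75th percentile scaling and -0.051 without both libraries with high Acta1, and -0.28 for Rps27l with the lymphocyte covariate. In Atf4AKO mice Rplp2 stood at -0.025 (75th percentile), -0.00061 (TMM), -0.061 (other genes), -0.0083 (array weights) and -0.0059 (lymphocyte covariate), and Rps27a at -0.0091 (other genes). The difference of the responses was -0.13 for Rpl26 and -0.31 for Rps27l with the lymphocyte covariate, -0.014 for Rps27l with scaling to other genes, and -0.58 (array weights) and -0.014 (without both libraries with high Acta1) for Rpl3l. With 1 library left out, the values after cold ran from -0.036 to 0.29 for Rpl32l and from -0.051 to 0.082 for Rpl7a. The response of Rplp2 in Atf4AKO mice ran from -0.050 to 0.13 and that of Rpl32l in Atf4WT mice from -0.25 to 0.12. The difference of the responses ran from -0.010 to 0.23 for Rpl26, from -1.21 to 2.47 for Rpl3l and from -0.014 to 0.14 for Rps27l.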
